A study of Mus musculus with 4 samples.

Results

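The genes described here are 34 genes that act in mitosis, from the cyclins that start it to the proteins that cut the daughter cells apart. They were chosen by name, with earlier results of these data known but with no use of their values for a threshold. Each was read from the row of its Ensembl ID among 28399 IDs, with the pairing of symbol and ID taken from the definition of the set. All 34 had a value on every array. The study compared terminal end buds with ducts of the mammary gland in pubertal female C57/BL6 mice. A terminal end bud (TEB) is the club-shaped tip at which a mammary duct grows into the fat pad, and the duct is the tube that the tip leaves behind. Both were cut out by hand after collagenase digestion of the fourth, inguinal, glands, from animals whose age is given as 5 to 6 weeks and also as 6 to 7 weeks at death. Each group has 2 arrays of RNA from pools of about 300 to 400 structures, called technical replicates, so p-values measure the spread between arrays and not between mice. No mutation or treatment distinguishes the groups.

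Cells commit to mitosis when cyclin-dependent kinase 1, bound to an A- or B-type cyclin, becomes active. Kinases of the Polo, Aurora and NIMA families then build the spindle, a checkpoint at the kinetochores delays anaphase until every chromosome is attached, and the anaphase-promoting complex ends mitosis by marking cyclin B and securin for destruction. The messages of most of these proteins accumulate only in G2 and mitosis, so their level in a tissue is widely used as a sign of dividing cells. In the pubertal gland, the terminal end bud is known as the main site of epithelial cell division. In whole structures, fewer cells of a type and less RNA per cell cannot be told apart.

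Each of the 34 genes had a higher mean in terminal end buds, where 59.8% of all IDs did. For each of them the lower TEB array also lay above the higher duct array, which held for 33.8% of all IDs. The differences ran from 0.87 log2 units (1.82-fold) for Cenpf to 3.23 (9.37-fold) for Kif2c, with a median of 2.26, or 4.78-fold, against a median of 0.11 over all IDs. At least 2-fold, 33 genes were higher without overlap, against 4.43% of all IDs. Of the 30 genes above the median brightness 29 were so, against 4.33% of the 14199 IDs there. Brightness was the mean over all 4 arrays, so TEB values alone could lift a gene into that set. At least 4-fold, 26 genes were higher, against 0.655% of all IDs. The gap between the lower TEB and the higher duct array was itself at least 2-fold for 33 genes, against 2.08% of all IDs, and for all 34 it was wider than the distance between the arrays of either group. By the size of the difference, 15 of the genes stood among the 100 most TEB-enriched IDs, 27 among the first 200 and 32 among the first 300.

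By limma's moderated test, a call required at least a 1.5-fold difference and an adjusted p (Benjamini-Hochberg, over all IDs) under 0.05. On these terms 0 of the 34 genes and 0% of all IDs were called. Adjusted p from limma ran from 0.0657 to 0.141 over the 34 genes. An unadjusted p under 0.05 from limma was reached by all 34, against 12.5% of all IDs reaching it in this direction. When limma's prior variance was allowed to follow brightness, 33 genes were called higher in terminal end buds, against 3.75% of all IDs, and Cenpf was not (adjusted p = 0.0506 from limma). The same fit on quantile-normalized values called 32, against 2.49% of all IDs, and left out Cenpf and Hmmr. At an adjusted p under 0.10 without that trend, 31 genes were called, against 1.46% of all IDs, and Cenpf, Hmmr and Anln were not. The calls therefore depended on the variance model and the threshold.

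**Figure D1:**
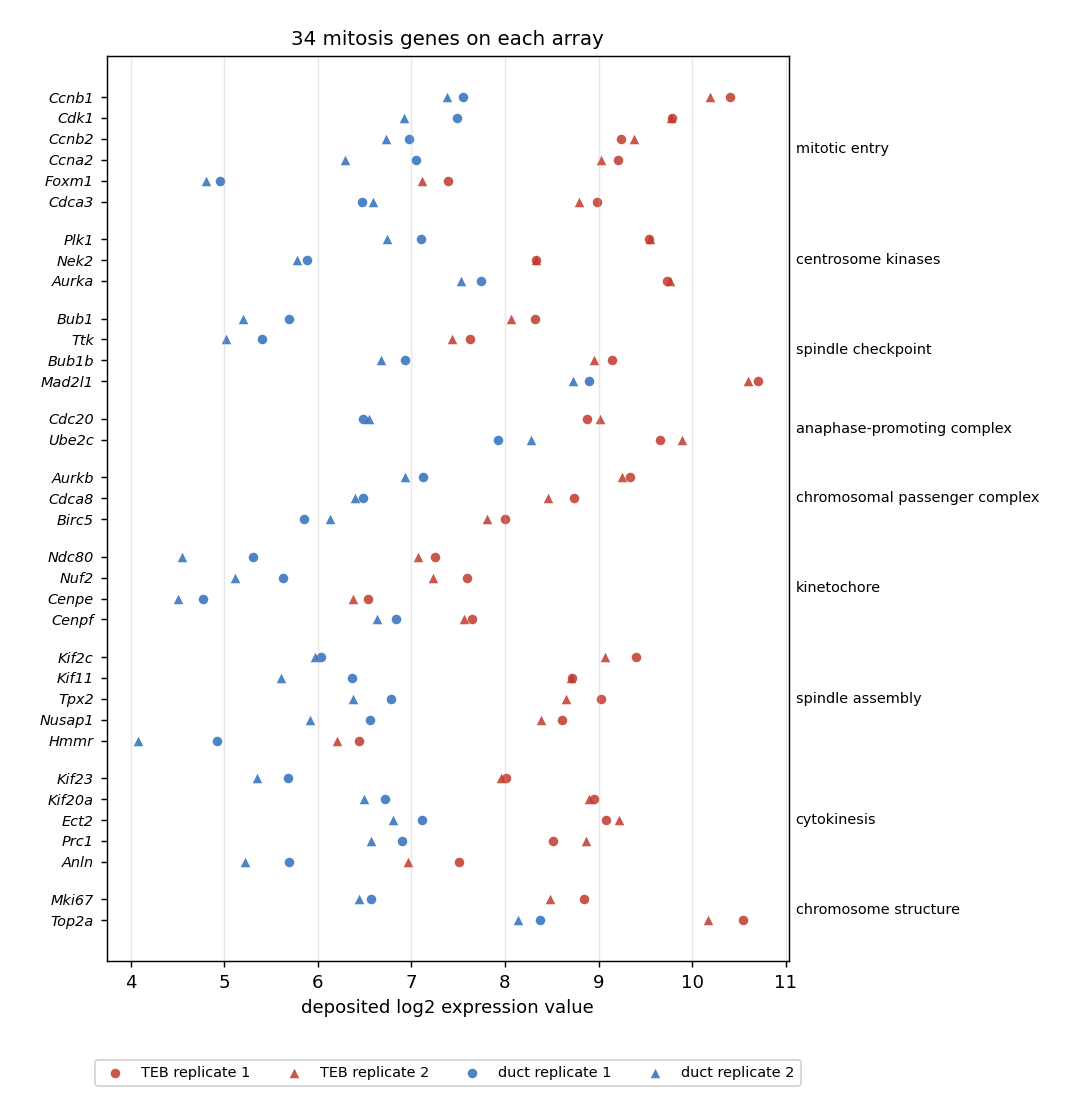
Deposited log2 expression value (x axis) of each of the 34 mitosis genes (rows, grouped by role) on the 2 terminal end bud arrays (red) and the 2 duct arrays (blue); circles are replicate 1 and triangles replicate 2. In every row both red symbols lie to the right of both blue symbols, and the narrowest gap is that of Cenpf, 0.72 log2 units.

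The arrays were not on one scale, and the median ID stood 0.11 log2 units further up on the TEB arrays. The array medians were 6.41 and 6.35 for terminal end buds and 6.34 and 6.20 for ducts, with duct replicate 2 the lowest. With the arrays brought to one distribution by quantile normalization, the median difference of the 34 genes was 2.11 log2 units, against 0.0041 over all IDs, and all 34 genes stayed higher, 33 of them at least 2-fold. Averaged over the 34 genes and set against the array's own median, the level was 2.25 ± 0.05 log2 units on the TEB arrays and 0.13 ± 0.11 on the duct arrays (SD, n = 2 each). For 4 arrays in groups of 2, the smallest p of a two-sided exact permutation test is 0.33. Markers of luminal, basal, stromal, fat, immune and endothelial cells were not analysed here, because no name was at hand for other IDs, so the epithelial identity of the structures was not checked and the part of their cell makeup in these differences was not tested.

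All 6 regulators of mitotic entry were TEB-enriched by 5.12-fold or more, with a median difference of 2.46 log2 units. Ccnb1 (ENSMUSG00000041431), which encodes cyclin B1, measured 10.41 and 10.20 on the TEB arrays and 7.56 and 7.38 on the duct arrays. Its difference of 2.83 (SE 0.19) was the second largest of the 34, 7.12-fold. Ccnb2 (ENSMUSG00000032218), the gene of cyclin B2, measured 9.25 and 9.38 in terminal end buds and 6.97 and 6.73 in ducts, a difference of 2.46 (SE 0.19). The intervals of the 2 B-type cyclins overlapped (2.33 to 3.34 for Ccnb1 and 1.96 to 2.97 for Ccnb2). Their partner Cdk1 (ENSMUSG00000019942), the kinase itself, stood at 9.79 and 9.78 in terminal end buds and at 7.49 and 6.92 in ducts. The TEB arrays nearly coincided for Cdk1 and the duct arrays lay 0.57 apart, which left a difference of 2.58 (SE 0.25), or 5.98-fold.

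Ccna2 (ENSMUSG00000027715), whose product cyclin A2 acts in S phase and at mitotic entry, measured 9.21 and 9.03 in terminal end buds against 7.05 and 6.29 in ducts. Its duct arrays were 0.76 log2 units apart, and its difference of 2.45 had a wide interval, 1.63 to 3.28. Foxm1 (ENSMUSG00000001517), a transcription factor that drives many G2 and mitosis genes, stood at 7.39 and 7.11 in terminal end buds and at 4.95 and 4.81 in ducts. Both TEB values lay more than 2 log2 units above both duct values, and the means were 5.17-fold apart. Cdca3 (ENSMUSG00000023505), a factor that promotes the destruction of the inhibitory kinase Wee1, measured 8.99 and 8.79 in terminal end buds and 6.48 and 6.59 in ducts. At 5.12-fold (difference 2.35, SE 0.18) it had the smallest difference of the entry genes.

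The kinases of the centrosome and spindle poles, Plk1 (ENSMUSG00000030867), Nek2 (ENSMUSG00000026622) and Aurka (ENSMUSG00000027496), had TEB arrays at most 0.034 log2 units apart, the closest of the role groups. Plk1, the Polo-like kinase that matures centrosomes and helps to activate Cdk1, measured 9.53 and 9.55 in terminal end buds and 7.10 and 6.74 in ducts, a difference of 2.62 (SE 0.21). Nek2, which splits the linked centrosomes before mitosis, stood at 8.33 and 8.34 in terminal end buds and at 5.89 and 5.78 in ducts, a difference of 2.50 (SE 0.17). For Aurka, the Aurora kinase of the poles, the values were 9.73 and 9.77 in terminal end buds and 7.74 and 7.53 in ducts. The gap between the lower TEB and the higher duct array was 1.99 log2 units for Aurka and 2.44 for both Plk1 and Nek2.

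The 4 spindle checkpoint genes were TEB-enriched by 3.56-fold or more. Bub1 (ENSMUSG00000027379), the checkpoint kinase that recruits others to the kinetochore, measured 8.32 and 8.06 in terminal end buds and 5.69 and 5.20 in ducts. Its difference of 2.74 (SE 0.25), or 6.7-fold, was the largest of the checkpoint genes. Mad2l1 (ENSMUSG00000029910), which encodes the Mad2 protein that holds Cdc20 (ENSMUSG00000006398) inactive, stood at 10.70 and 10.60 in terminal end buds and at 8.90 and 8.73 in ducts. Its difference of 1.83 (SE 0.18) was the smallest of the checkpoint genes. Between them lay Ttk (ENSMUSG00000038379), the Mps1 kinase that starts checkpoint signalling, at 2.32 (SE 0.22), and Bub1b (ENSMUSG00000040084), the gene of BubR1, at 2.24 (SE 0.20). The intervals of Bub1 (2.08 to 3.41) and Mad2l1 (1.36 to 2.31) overlapped, and no test between the genes was run.

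Cdc20 and Ube2c (ENSMUSG00000001403), which activate and serve the anaphase-promoting complex, differed from most other genes in the order of the arrays. Cdc20, the activator that the checkpoint restrains, measured 8.87 and 9.02 in terminal end buds and 6.49 and 6.55 in ducts, a difference of 2.43 (SE 0.17). Ube2c, the ubiquitin-conjugating enzyme of the complex, stood at 9.66 and 9.89 in terminal end buds and at 7.92 and 8.28 in ducts. Its difference of 1.68 (SE 0.22), or 3.2-fold, was the second smallest of the 34. For both genes replicate 2 was the higher array in both structures. Replicate 1 was higher for 26 of the 34 genes in terminal end buds and for 30 in ducts, against 57.0% and 58.9% of all IDs.

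The chromosomal passenger complex corrects faulty chromosome attachments and later marks the cleavage plane. Its kinase Aurkb (ENSMUSG00000020897) measured 9.33 and 9.25 in terminal end buds and 7.13 and 6.94 in ducts, a difference of 2.26 (SE 0.18). Cdca8 (ENSMUSG00000028873), which encodes the subunit borealin, was 4.48-fold higher, a difference of 2.16 (SE 0.19). Birc5 (ENSMUSG00000017716), the gene of survivin, stood at 8.01 and 7.81 in terminal end buds and at 5.85 and 6.13 in ducts, a difference of 1.91 (SE 0.20). The 3 subunits lay within overlapping intervals of each other, 1.78 to 2.74 for Aurkb, 1.65 to 2.68 for Cdca8 and 1.37 to 2.45 for Birc5.

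The kinetochore genes included the smallest difference of the 34. Ndc80 (ENSMUSG00000024056) and Nuf2 (ENSMUSG00000026683) encode partners in the complex that grips microtubule ends. Ndc80 measured 7.26 and 7.08 in terminal end buds and 5.30 and 4.55 in ducts, a difference of 2.24 (SE 0.31), and Nuf2 had a difference of 2.04 (SE 0.27). Cenpe (ENSMUSG00000045328), the kinesin that carries chromosomes towards the spindle equator, was 3.52-fold higher, a difference of 1.82 (SE 0.20). Cenpf (ENSMUSG00000026605), a large protein of the nuclear matrix and the outer kinetochore, stood at 7.65 and 7.56 in terminal end buds and at 6.84 and 6.64 in ducts. The structures did not overlap for Cenpf, yet its difference of 0.87 (SE 0.18) was the only one under 1. Its interval, 0.39 to 1.35, lay wholly below those of 27 of the other genes and overlapped those of 6. Among all IDs it ranked 1816 by difference, where the next lowest of the 34, Ube2c, ranked 344.

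**Figure D2:**
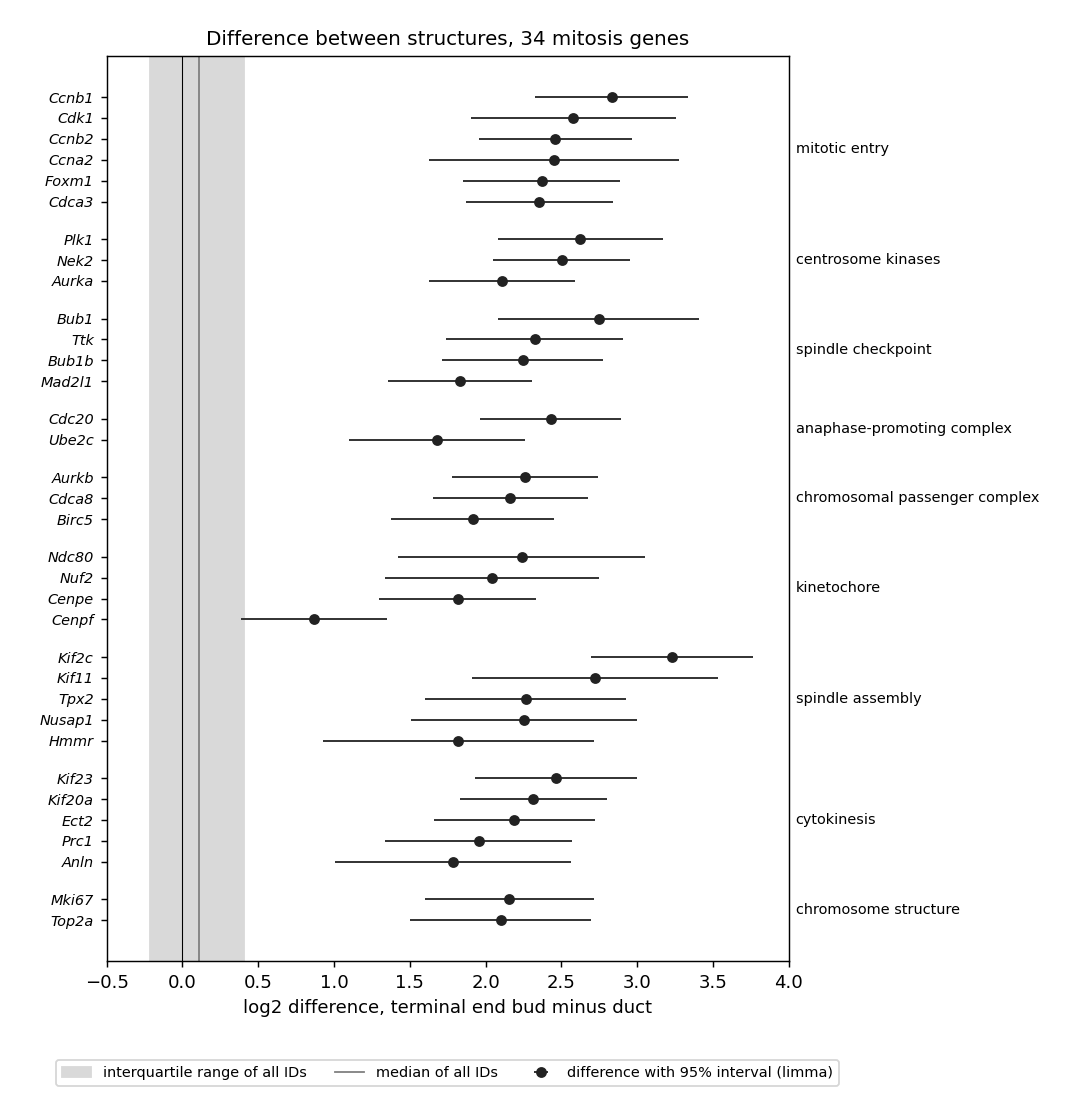
Log2 difference, terminal end bud minus duct (x axis), of each of the 34 mitosis genes (rows, grouped by role); points are differences of group means, bars limma's 95% intervals, the grey band the interquartile range of all 28399 IDs (-0.21 to 0.41) and the grey line their median, 0.11. Intervals of 33 genes lie wholly to the right of the band, and that of Cenpf starts at 0.39, inside it.

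Genes of spindle assembly held the largest difference of the 34 and the one with the widest interval. Kif2c (ENSMUSG00000028678), the kinesin MCAK that strips subunits from microtubule ends, measured 9.40 and 9.07 in terminal end buds and 6.04 and 5.97 in ducts. Its difference of 3.23 (SE 0.20, interval 2.69 to 3.76) ranked 8 among all 28399 IDs, and its gap between groups was 3.03. Kif11 (ENSMUSG00000012443), the kinesin Eg5 that pushes the poles apart, stood at 8.71 on both TEB arrays and at 6.37 and 5.60 on the duct arrays. Its duct arrays lay 0.77 apart, so its difference of 2.72 carried an SE of 0.30. Tpx2 (ENSMUSG00000027469), which activates Aurora A on the spindle, had a difference of 2.26 (SE 0.25), and Nusap1 (ENSMUSG00000027306), a microtubule-bundling protein, one of 2.25 (SE 0.28). Hmmr (ENSMUSG00000020330), a spindle protein also known as a hyaluronan receptor, measured 6.44 and 6.20 in terminal end buds and 4.92 and 4.08 in ducts. The lower of these duct values lay under the lower quartile of its array (4.49), where signal and background cannot be separated without detection calls. The difference of 1.82 for Hmmr had the widest interval of the 34, 0.92 to 2.72.

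The cytokinesis genes were between 3.44-fold and 5.51-fold higher in terminal end buds. Kif23 (ENSMUSG00000032254), the kinesin MKLP1 of the central spindle, measured 8.01 and 7.96 in terminal end buds and 5.69 and 5.36 in ducts, a difference of 2.46 (SE 0.20). Kif20a (ENSMUSG00000003779), the kinesin MKLP2 that moves Aurora B to the midzone, had a difference of 2.32 (SE 0.18). Ect2 (ENSMUSG00000027699), the exchange factor that switches on RhoA at the cleavage furrow, had one of 2.19 (SE 0.20), and Prc1 (ENSMUSG00000038943), which bundles midzone microtubules, one of 1.95 (SE 0.23). Anln (ENSMUSG00000036777), the actin-binding scaffold anillin, stood at 7.51 and 6.97 in terminal end buds and at 5.70 and 5.22 in ducts. The TEB arrays lay 0.55 apart for Anln, the widest such distance of the 34, and its difference was 1.78 (SE 0.29).

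Mki67 (ENSMUSG00000031004) and Top2a (ENSMUSG00000020914), widely used as proliferation markers, lay between the lower quartile of the set, 2.06, and its median, 2.26. Mki67, the gene of the Ki-67 protein that coats mitotic chromosomes, measured 8.84 and 8.48 in terminal end buds and 6.57 and 6.44 in ducts, a difference of 2.16 (SE 0.21), or 4.45-fold. Top2a, the topoisomerase that untangles sister chromatids, stood at 10.55 and 10.17 in terminal end buds and at 8.38 and 8.14 in ducts, a difference of 2.10 (SE 0.22). Neither marker overlapped between structures.

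On the deposited values, replicates differed less in terminal end buds than in ducts for 24 of the 34 genes. The median distance between arrays was 0.20 log2 units in terminal end buds and 0.27 in ducts. The duct arrays themselves lay further apart, with medians of 6.34 and 6.20 over all IDs, against 6.41 and 6.35 for terminal end buds. After quantile normalization the median of duct replicate 1 minus replicate 2 over the 34 genes was 0.12, against 0.25 before. A spread apart from that offset was not tested, and the share of all IDs was not counted. Replicate 1 was the higher duct array for 30 genes, or 88.2%, against 58.9% of all IDs. With all arrays brought to a common median it was so for 26 of the 34 genes, against 12539 of all 28399 IDs. Leaving out duct replicate 1 gave a median difference of 2.39, and leaving out duct replicate 2 gave 2.10, with 33 genes at least 2-fold higher both times.

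A wider list of genes that mark G2 and mitosis in cultured mouse cells holds 15 of the 34 genes and 58 other measured IDs, which are unnamed here. Of the 58, 53 were higher in terminal end buds, where 59.8% of all IDs were, and 26 at least 2-fold without overlap, against 4.43% of all IDs. In the fit with the brightness trend 24 were called higher and 0 lower, against 3.75% and 1.48% of all IDs. Their median difference was 0.91 log2 units, below the 2.26 of the 34 named genes. The 15 named genes inside that list and the 19 outside it had medians of 2.26 and 2.16. After quantile normalization the 58 IDs had a median difference of 0.71, with 48 higher, against 50.4% of all IDs. On the deposited values, lists for S and G1 phase from the same source also moved this way. In the S list 75 of 81 measured IDs were higher and 22 at least 2-fold without overlap, with a median difference of 0.58. In the G1 list 90 of 96 were higher and 16 at least 2-fold without overlap, with a median of 0.49. A higher level was thus not particular to the G2M list. The set of 34 was chosen by name with earlier results of these data known, so its distance from the wider list is a description and was not tested.

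**Figure D3:**
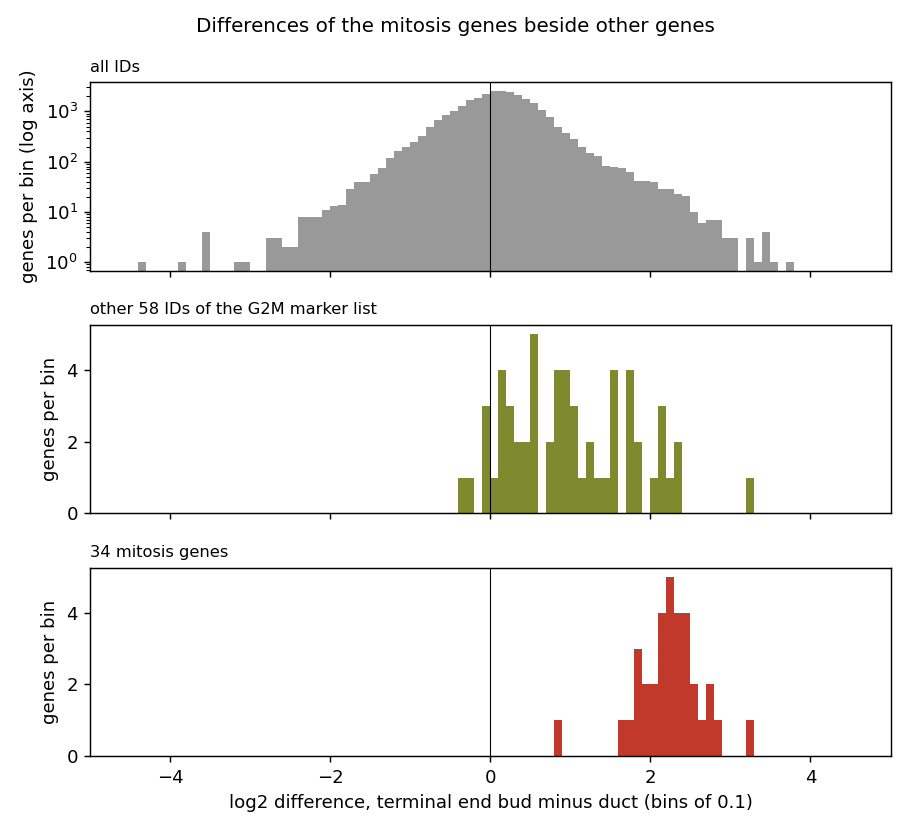
Number of genes (y axes, logarithmic in the top panel) in bins of 0.1 log2 units of the difference terminal end bud minus duct (x axis), for all 28399 IDs, for the other 58 measured IDs of the G2M marker list and for the 34 mitosis genes. The 34 genes lie between 0.87 and 3.23 around a median of 2.26, the other marker IDs spread around 0.91, and all IDs around 0.11.

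Apart from the array values, the DNA around the start sites of the genes was read for motifs known from cell cycle promoters. The cell cycle genes homology region (CHR) is bound by the MuvB core of the DREAM and B-Myb complexes, the CCAAT box by the factor NF-Y and the E2F site by E2F proteins. RefSeq promoter windows (GRCm38.p6), from 250 bases before to 50 after the start, were at hand for 29 of the genes, with 2 windows each for Prc1 and Ect2. Ccna2, Aurkb, Tpx2, Foxm1 and Kif20a were not matched. The CHR was searched by the letters TTTGAA, and the NF-Y box by its name-giving letters CCAAT. The E2F site was searched in the form TTCCCGC, in the form TTCGCGC, in the form TTGCCGC and in the form TTGGCGC. Every form was searched on both strands. An E2F match can share bases with a CCAAT box read on the other strand.

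The CHR letters were found for 21 of the 29 genes, or 72.4%, against 20.2% of the 27025 genes with a window. A CCAAT box was found for 22, or 75.9%, against 41.1% of all genes with a window, and 16 held at least 2 of them, against 13.3%. Both motifs occurred together for 18 genes, or 62.1%, against 7.97%. An E2F match was found for 5 genes, or 17.2%, against 10.9%, and for Ccnb1 and Ect2 it overlapped a CCAAT box. Birc5, Nusap1, Mad2l1 and Nuf2 held no TTTGAA, no CCAAT box and no E2F match in this window, and were 3.77-fold, 4.77-fold, 3.56-fold and 4.11-fold higher in terminal end buds. The genes with both motifs had a median difference of 2.22 log2 units and the other 11 matched genes one of 2.24. A match is a description of these letters and not evidence of a bound site. The shares come from the sequence alone, for genes chosen by name, and a link to the array differences was not tested.

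The CHR letters lay close to the start. With 1 window per gene (for Prc1 and Ect2, whose windows overlap, the one with the lower coordinate), their 27 matches had a median position of 3. By either window, 19 genes held one within 50 bases of the start, or 65.5%, against 5.94% of all genes with a window. That limit was chosen after the data were seen, so the contrast is a description and was not tested. The 56 CCAAT matches in the same windows lay further upstream, with a median position of -69.5, and 37 of them fell within the 100 bases before the start.

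**Figure D4:**
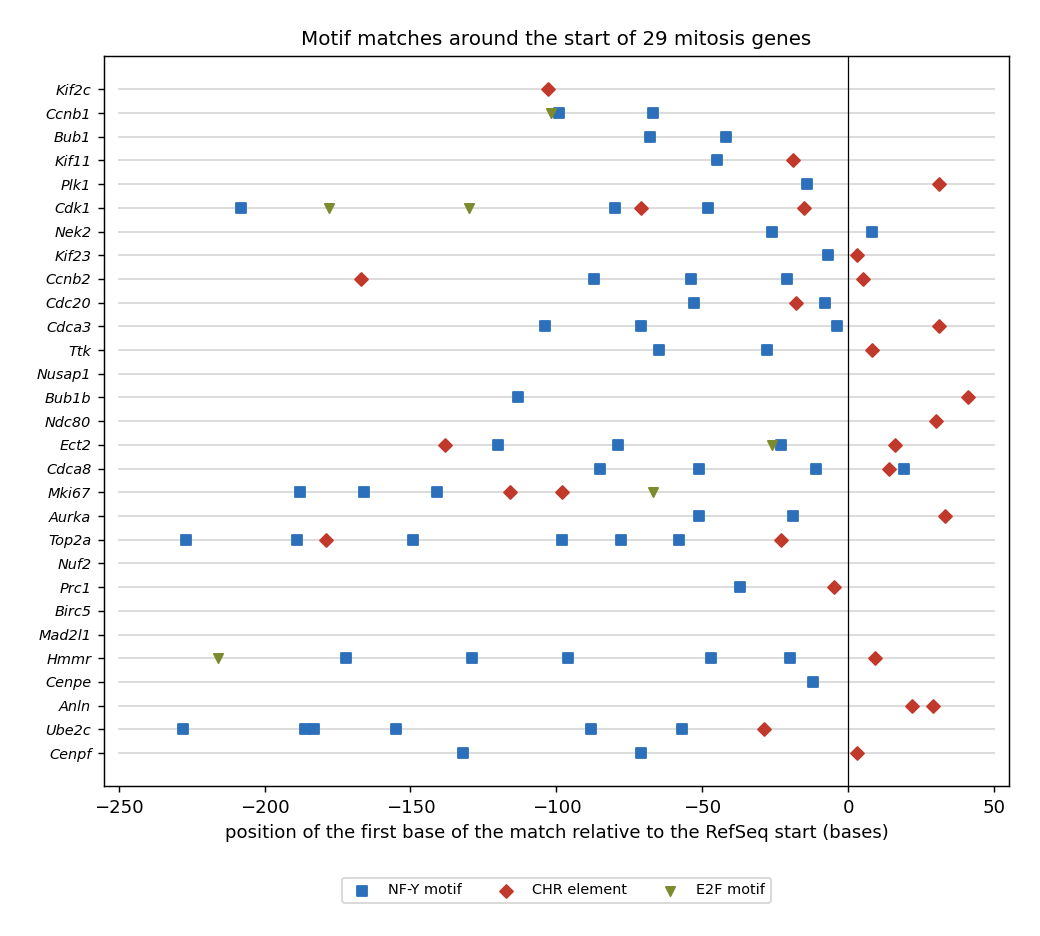
Position of motif matches (x axis, bases from the RefSeq start, either strand) for 29 mitosis genes (rows, ordered from the largest to the smallest difference between structures); blue squares are CCAAT boxes, the motif of NF-Y, red diamonds CHR matches and green triangles E2F matches. CHR matches cluster at the start with a median of 3 while CCAAT boxes lie upstream with a median of -69.5, and 4 rows hold no match. For Prc1 and Ect2 the window with the lower coordinate is drawn.

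The promoters that follow were picked by the size of the difference. Among genes holding both motifs, they belong to the top gene of each of the 4 role groups where that difference was largest. The last belongs to the gene with the largest difference among those that hold neither. Each runs from 250 bases before the start to 30 after it, 5′ to 3′ on the gene's strand, with CHR and CCAAT letters of either strand in capitals. Kif11 lies at chr19:37376132-37376411 on the plus strand, Plk1 at chr7:122159185-122159464 on the plus strand, Cdk1 at chr10:69352883-69353162 on the minus strand, Kif23 at chr9:61946770-61947049 on the minus strand and Nusap1 at chr2:119618048-119618327 on the plus strand.
Kif11: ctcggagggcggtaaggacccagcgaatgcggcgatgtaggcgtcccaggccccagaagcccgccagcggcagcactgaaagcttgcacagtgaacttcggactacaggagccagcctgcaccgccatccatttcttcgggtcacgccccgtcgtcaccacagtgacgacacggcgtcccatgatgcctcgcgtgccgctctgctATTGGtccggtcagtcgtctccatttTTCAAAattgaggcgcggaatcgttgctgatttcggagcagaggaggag
Plk1: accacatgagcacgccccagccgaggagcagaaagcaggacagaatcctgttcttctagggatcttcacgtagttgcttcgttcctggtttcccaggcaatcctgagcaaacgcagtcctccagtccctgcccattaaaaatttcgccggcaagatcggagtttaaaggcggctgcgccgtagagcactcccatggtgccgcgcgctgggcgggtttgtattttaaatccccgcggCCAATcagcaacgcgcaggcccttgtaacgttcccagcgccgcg
Cdk1: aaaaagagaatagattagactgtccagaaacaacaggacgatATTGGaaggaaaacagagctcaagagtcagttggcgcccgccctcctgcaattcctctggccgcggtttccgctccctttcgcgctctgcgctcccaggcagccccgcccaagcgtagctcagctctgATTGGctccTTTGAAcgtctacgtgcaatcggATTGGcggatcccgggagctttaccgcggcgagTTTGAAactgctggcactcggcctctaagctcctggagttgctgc
Kif23: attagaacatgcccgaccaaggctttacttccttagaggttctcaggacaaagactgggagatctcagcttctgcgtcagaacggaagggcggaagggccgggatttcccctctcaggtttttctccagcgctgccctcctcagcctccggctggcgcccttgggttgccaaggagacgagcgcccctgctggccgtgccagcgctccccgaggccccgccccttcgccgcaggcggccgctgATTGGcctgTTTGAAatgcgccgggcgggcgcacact
Nusap1: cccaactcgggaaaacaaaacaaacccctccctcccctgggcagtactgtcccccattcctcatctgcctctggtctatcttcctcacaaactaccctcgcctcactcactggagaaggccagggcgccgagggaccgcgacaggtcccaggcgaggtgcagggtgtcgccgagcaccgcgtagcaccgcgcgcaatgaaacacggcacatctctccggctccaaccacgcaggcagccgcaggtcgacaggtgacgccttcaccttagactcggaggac

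In the Kif11 promoter a CCAAT box starts at position -45 and a CHR match at -19, both read on the opposite strand. Plk1 has a CCAAT box at -14, and its CHR match starts at 31, past the stretch printed. Cdk1 has CCAAT boxes at -208, -80 and -48 and CHR matches at -71 and -15. In Kif23 both lie at the start itself, the CCAAT box at -7 and the CHR match at 3. Kif11, Plk1, Cdk1 and Kif23 were 6.6-fold, 6.17-fold, 5.98-fold and 5.51-fold higher in terminal end buds, and Nusap1, with neither motif in the window, 4.77-fold higher. The genes with both motifs were picked for their large differences, so their order against Nusap1 follows from that choice. Over all matched genes, those with both motifs had a median difference of 2.22 log2 units and the others 2.24.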

How the data were processed

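RNA of 2 terminal end bud and 2 duct samples was hybridised to single-colour arrays, with 1.5 microg of total RNA labelled by biotin, per the labels' protocols. The authors deposited one log2 value per Ensembl ID and array, made with RMA (background correction, normalization, log2 summary) on build mm9, per the submitters' processing notes. The RMA version and how values per ID arose are not given in the sources used. That the values are log2 was inferred from RMA and from their range.

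Groups were taken from sample titles and compared with limma 3.58.1 in R 4.3.3 on all IDs, unblocked and unfiltered (2 residual and 2.51 prior degrees of freedom). Calls required at least 1.5-fold and a p under 0.05 after Benjamini-Hochberg adjustment. Precision is limited by the 4 arrays. The fit was tested on simulated data. Drawing the noise from each ID's raw SD gave unbiased differences but no calls. Limma's moderated spreads were then used for the noise, a choice made after seeing that outcome, and most of the larger but few of the smaller differences put in were called. The power of the single-gene test thus depends on the spread assumed. Symbols were paired with IDs by the definition of the gene set, since the reference holds no Ensembl IDs, and lists fixed by symbol could not be used. All 34 genes were to be named, and array values given for the largest, the smallest and the extremes of each role group. The G2M list came from mouse marker pairs distributed with an R package. Members and lists were chosen with earlier results of these data known. Motifs were searched in RefSeq windows of GRCm38.p6. The alternatives tried were a brightness trend, quantile normalization, median centring, leaving out dim IDs, robust moderation, other thresholds, a replicate block and leaving out each array.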

Additional observations from a re-analysis of the deposited data

How the results depend on the processing

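All 34 genes kept their direction under each alternative run, except that 4 of them (Cenpe, Foxm1, Hmmr and Ndc80) were not fitted when only IDs above the median brightness were kept. Calls did not keep their count. Called mitosis genes moved from 0 to 33 with the brightness trend, to 32 with that trend after quantile normalization, to 30 of 30 fitted among the brighter IDs and to 31 at an adjusted p under 0.10, while all called IDs moved from 0 to 1485, 1466, 1426 and 549. The 1426 are out of 14199 brighter IDs. Brightness was the mean over all 4 arrays, so a gene could be kept through its TEB values alone. Ttk, for example, was kept with a duct mean of 5.21, under the cut of 6.31. The 30 calls among the brighter IDs are therefore no separate support. With the trend 1064 IDs were called higher and 421 lower in terminal end buds, and with that trend after quantile normalization 708 and 758. Robust moderation and no fold floor left 0 calls. The median difference of the 34 genes moved from 2.26 to 2.11 after quantile normalization, with or without the trend, and to 2.14 after median centring, and ran from 2.10 to 2.39 without single arrays. Without single arrays, 33 to 33 genes stayed at least 2-fold higher without overlap, 0 to 0 were called, and the median of the other G2M marker IDs ran from 0.76 to 1.06. Each such fit assumes that a lone array varies like the other group. With the replicate number as a block, 0 IDs and 0 mitosis genes were called, with adjusted p from limma of 0.168 to 0.197 over the 34 genes. Deviations of same-numbered arrays correlated with r = 0.0862 and no label ties a number to shared material, so the numbers were not treated as pairs. The CHR count was 25 with TTCGAA and TTTAAA allowed, or 86.2%, against 31.9% of all genes with a window, and Birc5 then held a match. Within 50 bases of the start it was 19, against 5.94%, a limit chosen after seeing the data. The lists fixed by symbol were not run. Signal over background is unknown without detection calls, which bears most on Hmmr, Cenpe, Foxm1 and Ndc80, whose duct means of 4.50, 4.64, 4.88 and 4.93 are the lowest of the 34. Causes of these shifts were not tested.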

Other observations

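Some neighbouring CCAAT boxes of the mitosis genes lay at a similar spacing, though most did not. With 1 window per gene, 10 of the 34 distances between neighbouring matches were 31 to 34 bases, or 29.4%, against 7.41% of the 4577 distances in the windows of all 27025 genes. The range was chosen after the distances were seen, so no test was made. The spacing occurred in 9 of the 16 windows with at least 2 boxes, those of Ccnb1, Ccnb2, Cdk1, Cdca3, Cdca8, Aurka, Nek2, Hmmr and Ube2c, and in 314 of 3238 such windows overall. These 9 genes include the cyclin B genes and their kinase.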
